A study of Mus musculus with 20 samples.

Results

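The voltage-gated calcium channel subunits Cacna1a, Cacna1b, Cacna1c, Cacna1d, Cacna1g, Cacna2d1, Cacna2d2, Cacnb2, Cacnb3 and Cacnb4 were followed through cerebellum and forebrain in mice that carried a knock-in and in their wild-type counterparts. Members were all probe sets that the array annotation assigns to these 10 genes, which gave 15 of the 22690 probe sets on the array. They covered 9 of the 12393 genes that a single symbol names there, since the annotation used here names none for Cacnb3. Of the 15, 14 passed the filter on dim values and were tested. The one left out, 1426185_at for Cacna2d2, read 17.0 to 240 intensity units and lay above the limit on 0 of 20 arrays.

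Total RNA was hybridised to 20 single-channel arrays whose probe sets carry Affymetrix names. Knock-in cerebellum and wild-type cerebellum had 2 arrays each at 11 weeks and 3 arrays each at 4 weeks, and so did knock-in forebrain and wild-type forebrain. The later age is given as 11 weeks in the descriptions and as 12 weeks in the titles. The labels name neither the knocked-in allele nor the strain, and nothing in them says that the arrays come from separate mice, so the p-values reflect array-to-array spread that could be technical in origin. Cerebellum is named in the source field and in the first words of the title for 7 of the 10 forebrain arrays, every one but the 4-week wild-type arrays. The description of 1 of them (knock-in forebrain 4 weeks replicate 3) names cerebellum as well. Arrays were therefore assigned to regions by the short code in the title. The measured markers followed that code on all 20 arrays: the Purkinje cell gene Pcp2 read 38010 to 55244 on cerebellum arrays and at most 579 on forebrain arrays, and the pyramidal neuron gene Camk2a read at most 385 on cerebellum arrays and 4828 to 14567 on forebrain arrays. The thalamic marker Tcf7l2 was below the filter limit on every array.

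Voltage-gated calcium channels open when the membrane depolarises and let calcium into the cell, where it drives firing, transmitter release and gene regulation. The pore is a single large alpha subunit, encoded by Cacna1a (P/Q-type), Cacna1b (N-type), Cacna1c and Cacna1d (L-type) or Cacna1g (low-voltage-activated T-type). P/Q-type and N-type channels sit at presynaptic release sites, P/Q-type channels carry most of the calcium current of Purkinje cells, and T-type channels support burst firing in thalamus, Purkinje cells and deep cerebellar nuclei. High-voltage-activated pores are accompanied by an extracellular alpha-2-delta subunit (Cacna2d1, Cacna2d2), which promotes surface delivery, and by a cytoplasmic beta subunit (Cacnb2, Cacnb3, Cacnb4), which binds the pore and sets its trafficking and gating. T-type pores do not need a beta subunit.

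Promoter sequences were read from RefSeq (GRCm38.p6), which held entries for 8 of the 10 genes. Those not matched were Cacna1a and Cacna1g. The promoters of both alpha-2-delta genes are shown because these paralogs had opposite regional patterns and both read lower in knock-in forebrain. Each window spans 250 bases before to 50 bases after the transcription start. Cacna2d1 lies at chr5:15934441-15934740 and Cacna2d2 at chr9:107399630-107399929, both on the plus strand. Capitals mark the GC box GGGCGG on either strand.
Cacna2d1: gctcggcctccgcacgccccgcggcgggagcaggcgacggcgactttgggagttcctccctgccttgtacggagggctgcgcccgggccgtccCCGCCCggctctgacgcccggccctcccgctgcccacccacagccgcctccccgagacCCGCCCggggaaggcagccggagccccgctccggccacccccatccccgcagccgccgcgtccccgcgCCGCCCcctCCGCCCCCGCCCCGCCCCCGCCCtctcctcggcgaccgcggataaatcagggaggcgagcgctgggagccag
Cacna2d2: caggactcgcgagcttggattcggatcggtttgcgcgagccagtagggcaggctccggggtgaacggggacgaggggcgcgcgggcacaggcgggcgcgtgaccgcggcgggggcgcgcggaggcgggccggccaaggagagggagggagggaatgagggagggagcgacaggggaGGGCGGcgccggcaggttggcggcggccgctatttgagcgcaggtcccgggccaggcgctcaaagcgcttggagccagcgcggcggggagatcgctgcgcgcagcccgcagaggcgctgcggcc
The Cacna2d1 window held 7 GC boxes, of which the 2 that start at positions 235 and 240 share a base, and the Cacna2d2 window held 1. Its GC content was 80% with 42 CpG dinucleotides for Cacna2d1, and 75.7% with 43 for Cacna2d2, against medians of 52.7% and 7 over 32851 mouse promoter windows. GGGCGG occurs in 35.7% of those windows. Neither window held TATAAA (in 13.6% of windows), AGGTCA (16.3%), CAGCTG (16.3%), TGACGTCA (1.79%), TGAATGAA (1.3%) or TGAATGGA (1.21%) on either strand. These matches describe the letters in the windows only.

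Intensities were deposited on a linear scale with a common scaling, and the array medians ran between 979 and 1180. Within each region and age, every knock-in array had a higher median than every wild-type array. In forebrain at 4 weeks, for example, medians were 1097 to 1117 in knock-in and 979 to 1036 in wild-type mice. Quantile and cyclic loess normalization were among the other settings. A difference is given as a log2 difference of intensity + 16 with the standard error of a limma model fitted to all 15627 probe sets that passed the filter, and a probe set was called at a Benjamini-Hochberg adjusted p under 0.05. The filter limit was each array's 40th percentile, which ran between 606 and 775, and "below the limit" refers to it. It too was higher on every knock-in array than on every wild-type array of the same region and age. The ratio of 3' to 5' signal, a sign of RNA integrity, was 0.744 to 0.903 for GAPDH and 0.934 to 1.23 for actin. Replicate arrays of a group correlated at r = 0.963 to 0.979 across probe sets.

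Most channel subunits differed in level between cerebellum and forebrain. In wild-type mice 10 of the 14 member probe sets were called between the regions, 7 higher in cerebellum and 3 lower, where 47.9% of all probe sets were called (26.6% higher and 21.3% lower). The T-type gene Cacna1g, the alpha-2-delta gene Cacna2d2, the P/Q-type gene Cacna1a and the beta gene Cacnb4 were higher in cerebellum. The N-type gene Cacna1b and the alpha-2-delta gene Cacna2d1 were lower there. In whole tissue, fewer cells of a type and less RNA per cell cannot be told apart.

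Cacna1g (1423365_at) had the largest regional rise among the members. It read 10501 and 9737 in wild-type cerebellum at 11 weeks and 11640, 9673 and 11258 at 4 weeks, against 2556 and 2883 in wild-type forebrain at 11 weeks and 3877, 3047 and 3606 at 4 weeks. Every cerebellum array lay above every forebrain array, and the difference was 1.76 ± 0.09 (3.39-fold, adjusted p = 3.59e-10). Ordered by rising mean over the 8 groups, the gene stood at 2148 ± 266 in knock-in forebrain at 11 weeks (SD, n = 2), 2413 ± 120 in knock-in forebrain at 4 weeks (n = 3), 2720 ± 231 (n = 2) and 3510 ± 423 (n = 3) in 11-week and 4-week wild-type forebrain. The cerebellar groups followed with 6165 ± 592 in knock-in mice at 11 weeks (n = 2), 8806 ± 750 in knock-in mice at 4 weeks (n = 3), 10119 ± 540 in wild-type mice at 11 weeks (n = 2) and 10857 ± 1043 in wild-type mice at 4 weeks (n = 3). Neighbouring groups in this order overlapped only at the bottom, between the ages of knock-in forebrain, and at the top, between the ages of wild-type cerebellum.

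Cacna1a was higher in wild-type cerebellum by both of its probe sets, by 0.96 ± 0.19 for 1450510_a_at (adjusted p = 0.000633) and by 0.75 ± 0.20 for 1459996_at (adjusted p = 0.0057). The first read 1212 to 2389 on the 5 wild-type cerebellum arrays, with a median of 1680, and 657 to 973 on the 5 wild-type forebrain arrays, with a median of 832. Cacna1b (1425812_a_at) went the other way, with 760 to 1896 in wild-type cerebellum (median 1385) and 2991 to 4410 in wild-type forebrain (median 3360). Its difference was -1.49 ± 0.32 (adjusted p = 0.00113), and no cerebellum array reached a forebrain array. The L-type genes were not called between regions with all probe sets: Cacna1c (1421297_a_at) differed by -0.12 ± 0.10 (adjusted p = 0.354), and the probe sets of Cacna1d by 0.33 ± 0.13 for 1427974_s_at (adjusted p = 0.0515) and -0.19 ± 0.12 for 1428051_a_at (adjusted p = 0.208). Cacna1d 1427974_s_at passed in 7 of 10 other settings, among them 1 probe set per gene (adjusted p = 0.0476) and the 60th percentile filter (adjusted p = 0.0381). A missed threshold does not show that L-type levels were alike.

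The alpha-2-delta genes were opposite. Cacna2d2 (1450754_at) read 13683 and 17425 in wild-type cerebellum at 11 weeks and 13716, 12400 and 11833 at 4 weeks, against 4589 and 4226 in wild-type forebrain at 11 weeks and 4140, 4054 and 4657 at 4 weeks. It was higher in cerebellum by 1.68 ± 0.11 (adjusted p = 5.53e-09), with no overlap. Its dimmer probe set 1451955_a_at was called in the same direction (1.34 ± 0.35, adjusted p = 0.00489). It lay below the limit on all 5 wild-type forebrain arrays and on all but 1 of the wild-type cerebellum arrays, so the size of that value depends on the offset of 16. The 3 of 20 arrays above the limit were all cerebellum, so it passed the filter only through the region where it read higher. Its call is therefore weak support. Cacna2d1 (1449999_a_at) read 1526 and 1398 in wild-type cerebellum at 11 weeks and 2581, 2294 and 1345 at 4 weeks, against 6036 and 4809 in wild-type forebrain at 11 weeks and 6209, 5891 and 7676 at 4 weeks. Forebrain arrays were all higher, and the difference of -1.79 ± 0.16 (adjusted p = 1.92e-07) was matched in direction by 1425861_x_at (-1.97 ± 0.23, adjusted p = 2.46e-06), a probe set of a type that may cross-hybridise. That probe set was above the limit on 1 of 3 wild-type cerebellum arrays at 4 weeks and on 0 of 2 at 11 weeks, so the size of its difference is uncertain.

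Cacnb4, the beta subunit mutated in the ataxic lethargic mouse, was higher in wild-type cerebellum by 0.53 ± 0.12 for 1452089_at (adjusted p = 0.00129) and by 0.50 ± 0.17 for 1436912_at (adjusted p = 0.0216). The second call was lost without wild-type cerebellum 11 weeks replicate 1 (adjusted p = 0.0792) or wild-type forebrain 11 weeks replicate 2 (adjusted p = 0.115). Cacnb2 (1452476_at) differed by -0.39 ± 0.21 and was not called (adjusted p = 0.14).

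**Figure D1:**
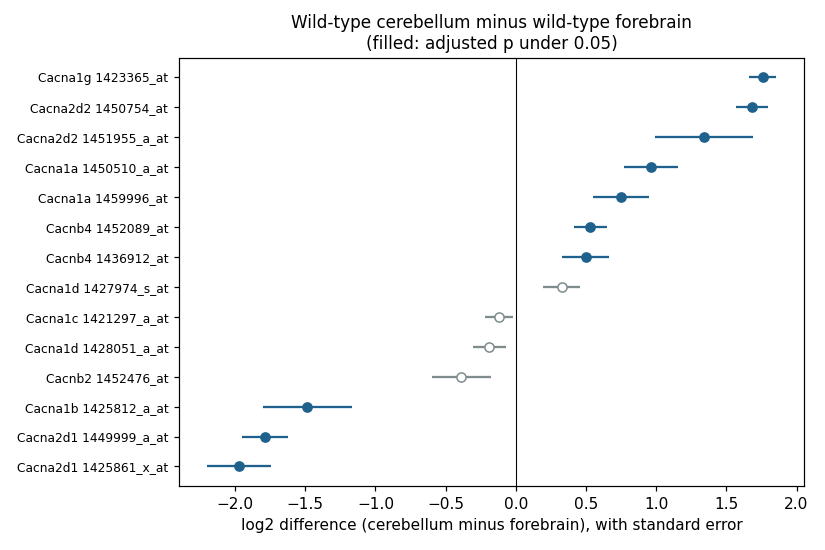
Log2 difference of wild-type cerebellum minus wild-type forebrain (x axis, averaged over both ages) for the 14 tested probe sets, one per line, with the model's standard error as bars and filled points for adjusted p under 0.05. Cacna1g and Cacna2d2 lie farthest to the right at 1.76 and 1.68, and both Cacna2d1 probe sets farthest to the left at -1.79 and -1.97.

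The comparison of knock-in with wild-type mice asks how the knocked-in allele goes with channel subunit expression. Averaged over the 4 region and age groups, 6 of the 14 member probe sets were called, 4 lower and 2 higher in knock-in mice. Over all probe sets 23.7% were called, 8.65% lower and 15% higher. The T-type pore Cacna1g, the alpha-2-delta gene Cacna2d2 (1450754_at) and the beta genes Cacnb4 (1452089_at) and Cacnb2 fell. One probe set each of Cacna1d and Cacna1a rose. The members' median difference was -0.20, beside 0.03 over all probe sets tested, and 11 of the 14 fitted values were below 0. The member split became 1 higher and 4 lower after quantile and 0 higher and 4 lower after cyclic loess normalization. Over all called probe sets the share higher in knock-in mice was 63.5% as deposited, 49.8% after quantile and 42.4% after cyclic loess normalization. In the cerebellar mean that share was 67.2%, 54.4% and 46.1%, and in forebrain at 4 weeks 67.2%, 49.6% and 42.9%.

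Among the called probe sets Cacnb2 (-0.50) and Cacna1g (-0.47) had the largest differences. The uncalled Cacna2d2 probe set 1451955_a_at (-0.48) was above the limit on only 3 of 20 arrays, and its value ran between -0.71 and -0.37 over other settings.

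**Figure D2:**
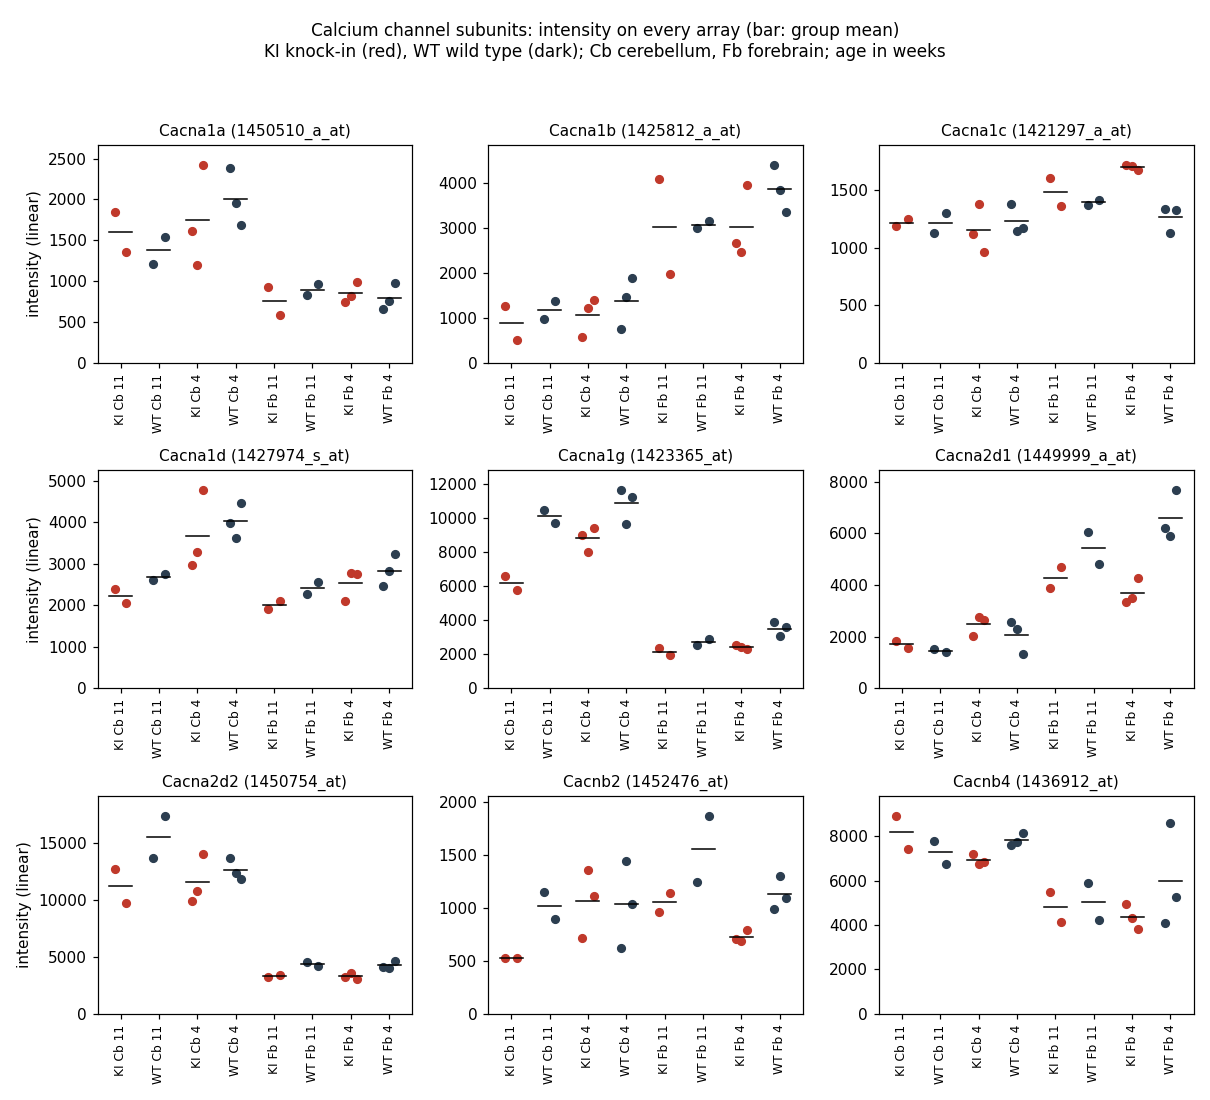
Intensity on a linear scale (y axis) on every array for the brightest probe set of each of the 9 measured genes, with knock-in arrays in red, wild-type arrays in dark blue and a bar at each group mean (Cb cerebellum, Fb forebrain, 11 and 4 weeks of age). In the Cacna1g panel each knock-in group lies wholly below the wild-type group beside it.

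Cacna1g intensity was lower in knock-in arrays whatever the region or age. In cerebellum it read 6584 and 5746 in knock-in mice at 11 weeks, against 10501 and 9737 in wild-type mice, and 8995, 7980 and 9444 in knock-in mice at 4 weeks, against 11640, 9673 and 11258 in wild-type mice. In forebrain it read 2336 and 1960 in knock-in mice at 11 weeks, against 2556 and 2883 in wild-type mice, and 2536, 2407 and 2297 in knock-in mice at 4 weeks, against 3877, 3047 and 3606 in wild-type mice. Every knock-in array thus lay below every wild-type array in each of the 4 pairs of groups, a pattern shown by 156 of 15627 probe sets (0.998%), while 1.54% did so upward. No other member probe set did either.

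Counted over the 14 tested member probe sets, every knock-in array was below every wild-type array for 4 in cerebellum at 11 weeks, 3 in cerebellum at 4 weeks, 7 in forebrain at 11 weeks and 5 in forebrain at 4 weeks. Over all probe sets the shares were 22.4%, 7.59%, 21.1% and 11.5% in the same order. The reverse, every knock-in array above every wild-type array, held for 2, 0, 2 and 2 member probe sets, beside 26.9%, 11.2%, 26.9% and 17.2% of all probe sets. The members separated downward most often in forebrain, where 7 of 14 at 11 weeks and 5 of 14 at 4 weeks did so.

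The mean difference of Cacna1g over the 4 pairs was -0.47 ± 0.07, a 1.39-fold lower level (adjusted p = 0.000498), and leaving out any 1 of the 20 arrays did not end this call. By region it fell by 0.51 ± 0.09 in cerebellum (adjusted p = 0.0125) and by 0.44 ± 0.09 in forebrain (adjusted p = 0.0102). Cacna1g was the only 1 of 14 member probe sets called in the cerebellar mean, where 3.35% of all probe sets were called and 1.1% were lower. Without knock-in cerebellum 11 weeks replicate 2 the cerebellar value was -0.46 (adjusted p = 0.0666), and without knock-in forebrain 11 weeks replicate 2 the forebrain value was -0.37 (adjusted p = 0.0581). Its difference between regions was -0.07 ± 0.13 (adjusted p = 0.95).

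By age, Cacna1g was called in forebrain at 4 weeks (-0.53 ± 0.12, adjusted p = 0.0181), though not without knock-in forebrain 4 weeks replicate 2 (adjusted p = 0.0567) or when only these 6 arrays were fitted (adjusted p = 0.0846). The largest value, -0.72 ± 0.15 in cerebellum at 11 weeks, just missed the threshold with all probe sets (adjusted p = 0.0509) and passed it when each gene was represented by its brightest probe set (adjusted p = 0.0433). It passed in 6 of 10 other settings and not in the other 4 (adjusted p up to 0.251). Leaving out 1 of the 4 arrays gave differences of -0.81 to -0.62. At that age and region 0 of 14 member probe sets were called by limma, 4 had an unadjusted p under 0.05, and 0.346% of all probe sets were called. Cerebellum at 4 weeks (-0.30 ± 0.12, adjusted p = 0.296) and forebrain at 11 weeks (-0.34 ± 0.13, adjusted p = 0.274) were not called. The change with age in the cerebellar difference was -0.42 ± 0.19 (adjusted p = 0.863).

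Summed markers of several cell types moved with Cacna1g. The summed intensity of the Purkinje cell list (10 of 12 genes on the array, none of them a channel subunit) was 250045 to 286930 in knock-in and 316102 to 322139 in wild-type cerebellum at 11 weeks, and 280008 to 292012 in knock-in and 311480 to 319902 in wild-type cerebellum at 4 weeks. In forebrain, where Pcp2 was below the limit, the same sum was 49914 to 52587 in knock-in and 58992 to 63136 in wild-type mice at 11 weeks, and 53818 to 58751 in knock-in and 66155 to 71820 in wild-type mice at 4 weeks. The groups did not overlap in any pair, while of the 9 genes tested from that list 1 fell and 8 were not called in the cerebellar mean (median -0.18). In the forebrain mean 1 rose, 2 fell and 6 were not called, with 3 of the 9 fitted values above 0 (median -0.05).

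Other lists also stood apart. The thalamic neuron sum (8 of 8 genes on the array, 4 past the filter) was 12093 to 12189 in knock-in and 12866 to 13609 in wild-type forebrain at 11 weeks, and 10846 to 12908 in knock-in and 13406 to 14874 in wild-type forebrain at 4 weeks. This sum is not specific to thalamus. Its wild-type means were higher in cerebellum (26564 at 11 weeks, 27434 at 4 weeks) than in forebrain (13238 and 14332). The granule neuron sum (8 of 10 genes) was 179935 to 182122 in knock-in and 191840 to 192439 in wild-type cerebellum at 11 weeks, and 186721 to 197593 in knock-in and 207092 to 213731 in wild-type cerebellum at 4 weeks. The astrocyte sum (10 of 10 genes) was apart at 11 weeks, with 158786 to 166725 in knock-in and 174712 to 189479 in wild-type cerebellum, and 106978 to 109219 in knock-in and 137134 to 139530 in wild-type forebrain. All of these were lower in knock-in mice, but some other sums were higher. In forebrain at 4 weeks the microglia sum was 53597 to 60031 in knock-in and 46028 to 49840 in wild-type mice. The oligodendrocyte sum there was 116874 to 148593 in knock-in and 113455 to 114591 in wild-type mice. In cerebellum the choroid plexus sum was apart upward at 11 weeks and downward at 4 weeks, and the oligodendrocyte sum downward at 11 weeks. The GAPDH 3' to 5' ratio also separated the genotypes in cerebellum at 11 weeks, with 0.848 and 0.903 in knock-in and 0.842 and 0.823 in wild-type mice. Sums of GABAergic, cortical pyramidal and striatal genes are given below with Cacna2d2. The part of all these lists and of the ratio in the Cacna1g difference was not tested.

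The L-type genes gave unlike readings between probe sets. Cacna1d 1428051_a_at read 1950 and 1732 in knock-in cerebellum at 11 weeks, against 1386 and 1361 in wild-type cerebellum. In forebrain it read 2234 and 2450 in knock-in mice at 11 weeks, against 1693 and 2104 in wild-type mice, and 2680, 2660 and 3374 in knock-in mice at 4 weeks, against 2092, 1985 and 2297 in wild-type mice. The genotypes were apart in these 3 pairs and overlapped in cerebellum at 4 weeks (2113, 1753 and 2653 in knock-in mice, 2274, 1978 and 2499 in wild-type mice). The mean difference was 0.28 ± 0.08 (adjusted p = 0.0277).

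The other probe set, 1427974_s_at, read 2405 and 2052 in knock-in cerebellum at 11 weeks, against 2604 and 2765 in wild-type cerebellum, and 1919 and 2094 in knock-in forebrain at 11 weeks, against 2284 and 2569 in wild-type forebrain. Knock-in arrays were the lower ones in both regions at 11 weeks, and the genotypes overlapped at 4 weeks. Over the 4 pairs it gave -0.21 ± 0.09 and was not called (adjusted p = 0.108), so these probe sets of 1 gene, which can match different transcripts, had opposite signs.

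The Cacna1d call was lost without knock-in cerebellum 11 weeks replicate 1 (adjusted p = 0.0649), wild-type cerebellum 11 weeks replicate 2 (0.0547), knock-in forebrain 11 weeks replicate 2 (0.0651) or wild-type forebrain 11 weeks replicate 1 (0.0786), and with cyclic loess normalization (0.0507). Its forebrain mean of 0.37 ± 0.12 (adjusted p = 0.0479) was lost without any of 9 of the 10 forebrain arrays, with adjusted p up to 0.193. That call was also lost with no filter (0.0766), with quantile (0.0633) or cyclic loess normalization (0.0737) and with only the forebrain arrays fitted (0.0645).

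Cacna1c (1421297_a_at), the main L-type pore of cortex and of vascular muscle, stood out only in forebrain at 4 weeks. There it read 1724, 1713 and 1682 in knock-in mice and 1336, 1132 and 1330 in wild-type mice, without overlap. The difference of 0.43 ± 0.13 missed the threshold with all probe sets (adjusted p = 0.054) and passed it with 1 probe set per gene (adjusted p = 0.0471) and with the filter at the 60th percentile (adjusted p = 0.046). It did not pass in the other 8 of 10 settings (adjusted p up to 0.182). Nor did it pass without any 1 of the 6 arrays (adjusted p 0.0635 to 0.179). Over the 4 pairs its mean difference was 0.10 ± 0.06 (adjusted p = 0.31).

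Of the presynaptic pores, Cacna1a had one probe set that rose and one that was not called. Probe set 1459996_at read 974 and 1228 in knock-in forebrain at 11 weeks, against 538 and 566 in wild-type forebrain, where both arrays were below the limit. It read 598, 1232 and 1182 in knock-in forebrain at 4 weeks, against 713, 779 and 1006 in wild-type forebrain. In cerebellum it read 1292 and 1360 in knock-in mice at 11 weeks, against 1310 and 706 in wild-type mice, and 1489, 1487 and 1360 in knock-in mice at 4 weeks, against 1164, 1320 and 1634 in wild-type mice. The genotypes were apart only in forebrain at 11 weeks.

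The mean difference of that probe set was 0.43 ± 0.14 (adjusted p = 0.0390). The call was lost without any 1 of 14 of the 20 arrays (adjusted p 0.0526 to 0.109, the highest without wild-type cerebellum 11 weeks replicate 2, where the difference was 0.32), with no filter (0.0615) and with quantile or cyclic loess normalization (0.124 and 0.148). The brighter Cacna1a probe set, 1450510_a_at, differed by -0.05 ± 0.14 (adjusted p = 0.813). Cacna1b (1425812_a_at) differed by -0.34 ± 0.22 (adjusted p = 0.29), with 515 to 1395 in knock-in and 760 to 1896 in wild-type cerebellum, and 1973 to 4093 in knock-in and 2991 to 4410 in wild-type forebrain. Its groups overlapped in all 4 pairs.

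**Figure D3:**
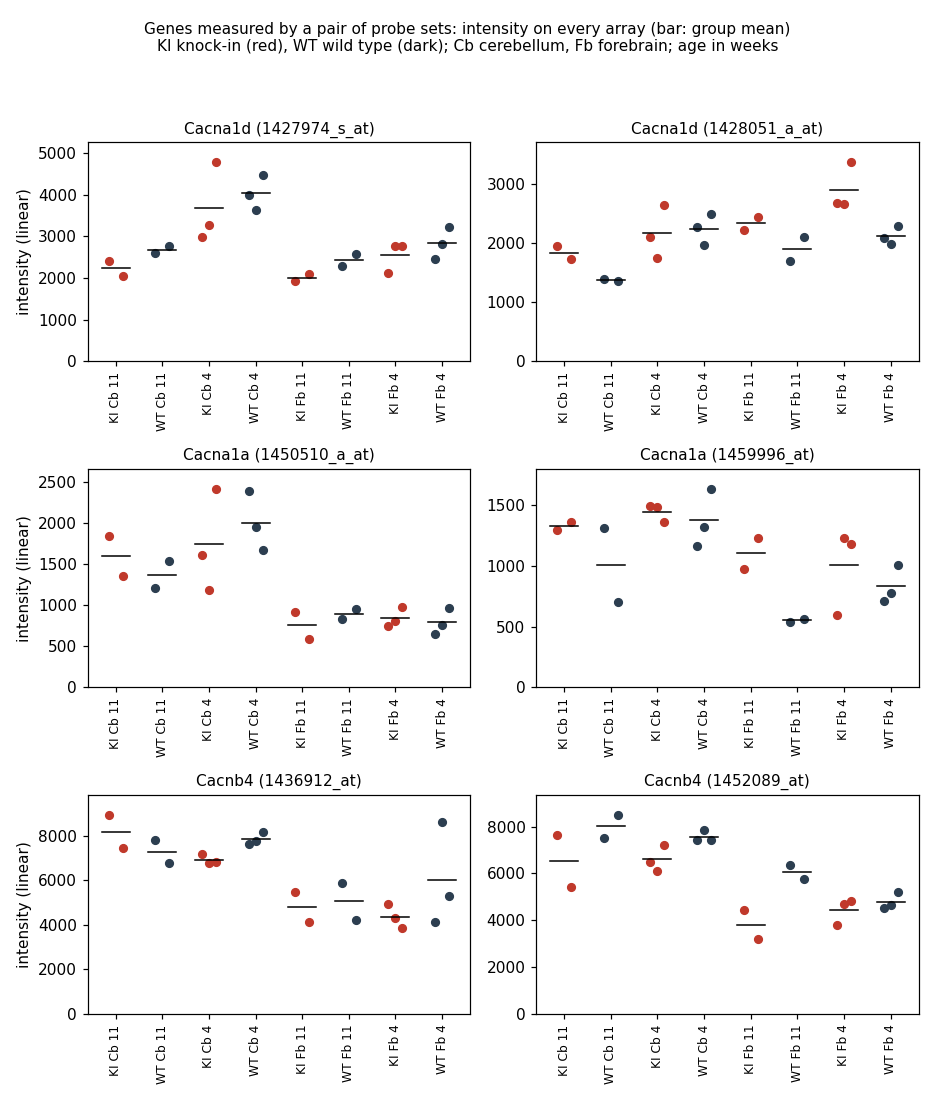
Intensity on a linear scale (y axis) on every array for Cacna1d, Cacna1a and Cacnb4, each measured by a pair of probe sets (left and right), with knock-in arrays in red, wild-type arrays in dark blue and a bar at each group mean. For Cacna1d the knock-in means at 11 weeks lie below wild type on the left (1427974_s_at) and above it on the right (1428051_a_at).

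Both alpha-2-delta genes read lower in knock-in forebrain. The forebrain mean had 5 of 14 member probe sets called, 4 lower and 1 higher, where 13.5% of all probe sets were called (5.13% lower and 8.36% higher). That count was 0 to 3 without any single forebrain array other than wild-type 4 weeks replicate 1, with 0 where knock-in forebrain 11 weeks replicate 2 was left out, and 1 with no filter. The split of 1 higher and 4 lower became 0 and 5 after quantile and 0 and 6 after cyclic loess normalization, while the share of all called probe sets that were higher was 62.0% as deposited, 47.9% after quantile and 39.3% after cyclic loess.

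Cacna2d1 (1449999_a_at) read 3336, 3500 and 4282 in knock-in forebrain at 4 weeks, against 6209, 5891 and 7676 in wild-type forebrain, and 3890 and 4687 in knock-in forebrain at 11 weeks, against 6036 and 4809 in wild-type forebrain. All knock-in arrays were below all wild-type arrays of the same age.

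The Cacna2d1 difference was -0.83 ± 0.21 at 4 weeks (adjusted p = 0.028) and -0.58 ± 0.16 over both ages (adjusted p = 0.0311). At 4 weeks in forebrain 2 of 14 member probe sets were called, this one and Cacna1g, both lower, where 2.42% of all probe sets were called lower and 7.37% in either direction. The 4-week call was lost without knock-in replicate 1 (0.0887) or 2 (0.0861), without wild-type replicate 2 (0.0561) or 3 (0.0890), and when only these 6 arrays were fitted (0.0558). The mean over ages was lost without 6 of the 10 forebrain arrays, with adjusted p up to 0.127 (without wild-type forebrain 11 weeks replicate 1), and with no filter (0.0544). The second probe set, 1425861_x_at, read 1364, 1387 and 1697 in knock-in and 1858, 2377 and 2971 in wild-type forebrain at 4 weeks, and was not called over the 4 pairs (-0.19 ± 0.16, adjusted p = 0.423). In the forebrain mean it gave -0.53 ± 0.23 and was not called (adjusted p = 0.122).

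In cerebellum the fitted Cacna2d1 difference was above 0 but not called (0.26 ± 0.16 over both ages, adjusted p = 0.383). It read 1836 and 1575 in knock-in and 1526 and 1398 in wild-type cerebellum at 11 weeks, and 2036, 2761 and 2637 in knock-in and 2581, 2294 and 1345 in wild-type cerebellum at 4 weeks. At 11 weeks the knock-in arrays thus stood above wild type in cerebellum and below it in forebrain, and such opposite separation held for 4.36% of all probe sets. The genotype difference in cerebellum minus that in forebrain was 0.84 ± 0.23, with a 95% confidence interval of 0.345 to 1.33 and an unadjusted p of 0.00244 from limma, which did not pass adjustment over all probe sets (adjusted p = 0.193). For that difference between regions 0 of 14 member probe sets and 0.282% of all probe sets were called, and 2 members had an unadjusted p under 0.05.

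Cacna2d2 (1450754_at), whose loss causes ataxia in the ducky mouse, fell in the mean over the 4 pairs and in forebrain. In cerebellum it read 12764 and 9749 in knock-in mice at 11 weeks, against 13683 and 17425 in wild-type mice, and 9883, 10779 and 14070 in knock-in mice at 4 weeks, against 13716, 12400 and 11833 in wild-type mice. In forebrain it read 3233 and 3434 in knock-in mice at 11 weeks, against 4589 and 4226 in wild-type mice, and 3221, 3620 and 3067 in knock-in mice at 4 weeks, against 4140, 4054 and 4657 in wild-type mice. The genotypes overlapped only in cerebellum at 4 weeks, where knock-in replicate 3 exceeded every wild-type array. The cerebellar mean difference of -0.31 ± 0.11 was not called (adjusted p = 0.137).

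Over the 4 pairs Cacna2d2 fell by 0.35 ± 0.08 (adjusted p = 0.00779), a call that held without each of the 20 arrays in turn. In forebrain it fell by 0.39 ± 0.11 (adjusted p = 0.0362), which was lost without 7 of the 10 forebrain arrays (adjusted p up to 0.123) and with no filter (0.0599). Probe set 1451955_a_at gave -0.48 ± 0.24 over the 4 pairs (adjusted p = 0.174) and was below the limit on all 10 forebrain arrays. The Purkinje cell sums above separated the genotypes here too. In forebrain the sum of 9 GABAergic interneuron genes also did, with 48469 to 57408 in knock-in and 61644 to 68417 in wild-type mice at 11 weeks, and 54781 to 60637 in knock-in and 63998 to 76073 in wild-type mice at 4 weeks. The GABAergic sum was also apart in cerebellum at 11 weeks, with 82751 to 91399 in knock-in and 93949 to 98803 in wild-type mice. In forebrain at 11 weeks the cortical pyramidal neuron sum was 59337 to 70247 in knock-in and 77972 to 80086 in wild-type mice. The striatal sum there was 10002 to 10853 and 11614 to 12826. Both overlapped in forebrain at 4 weeks. The wild-type striatal mean at 11 weeks was higher in cerebellum (15876) than in forebrain (12220). The part of these lists in the alpha-2-delta differences was not tested.

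Among the beta subunits, Cacnb4 and Cacnb2 each had a probe set that fell. Cacnb4 1452089_at read 4420 and 3203 in knock-in forebrain at 11 weeks, against 6349 and 5765 in wild-type forebrain, and 3813, 4710 and 4805 in knock-in forebrain at 4 weeks, against 4521, 4647 and 5203 in wild-type forebrain. In cerebellum it read 7639 and 5406 in knock-in mice at 11 weeks, against 7528 and 8507 in wild-type mice, and 6499, 6111 and 7230 in knock-in mice at 4 weeks, against 7427, 7877 and 7417 in wild-type mice. The genotypes were apart in forebrain at 11 weeks and in cerebellum at 4 weeks.

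The mean difference of Cacnb4 1452089_at was -0.33 ± 0.08 (adjusted p = 0.0110) and was called without each of the 20 arrays in turn. In the forebrain mean it was -0.40 ± 0.12 (adjusted p = 0.0349), lost without 6 of 10 arrays (adjusted p up to 0.176, without knock-in forebrain 11 weeks replicate 2), with no filter (0.0586) and with only the forebrain arrays fitted (0.0697). At 11 weeks in forebrain it was -0.68 ± 0.18 (adjusted p = 0.0900), and 0 of 14 member probe sets were called there by limma, 5 had an unadjusted p under 0.05, and 0.864% of all probe sets were called. Actin's 3' to 5' ratio was 1.06 and 0.934 in knock-in and 1.09 and 1.15 in wild-type forebrain at that age, and its part was not tested.

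The other Cacnb4 probe set, 1436912_at, read 7188, 6768 and 6829 in knock-in cerebellum at 4 weeks, against 7632, 7745 and 8167 in wild-type cerebellum, and 4941, 4318 and 3838 in knock-in forebrain at 4 weeks, against 4114, 8614 and 5277 in wild-type forebrain. The genotypes were apart only in cerebellum at 4 weeks, and wild-type forebrain 4 weeks replicate 2 stood above every other forebrain array. This probe set was not called over the 4 pairs (-0.12 ± 0.12, adjusted p = 0.493).

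Cacnb2 (1452476_at) read 528 and 526 in knock-in cerebellum at 11 weeks, both below the limit, against 1154 and 894 in wild-type cerebellum. In forebrain it read 961 and 1146 in knock-in mice at 11 weeks, against 1247 and 1875 in wild-type mice, and 703, 687 and 790 in knock-in mice at 4 weeks, against 994, 1308 and 1093 in wild-type mice. The genotypes did not overlap in these 3 pairs, but did in cerebellum at 4 weeks, with 718, 1360 and 1111 in knock-in and 625, 1442 and 1041 in wild-type mice. The mean difference was -0.50 ± 0.15 (adjusted p = 0.0239), and the call was lost without wild-type cerebellum 11 weeks replicate 1 (0.0589), knock-in forebrain 11 weeks replicate 1 (0.0527) or wild-type forebrain 11 weeks replicate 2 (0.0612).

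**Figure D4:**
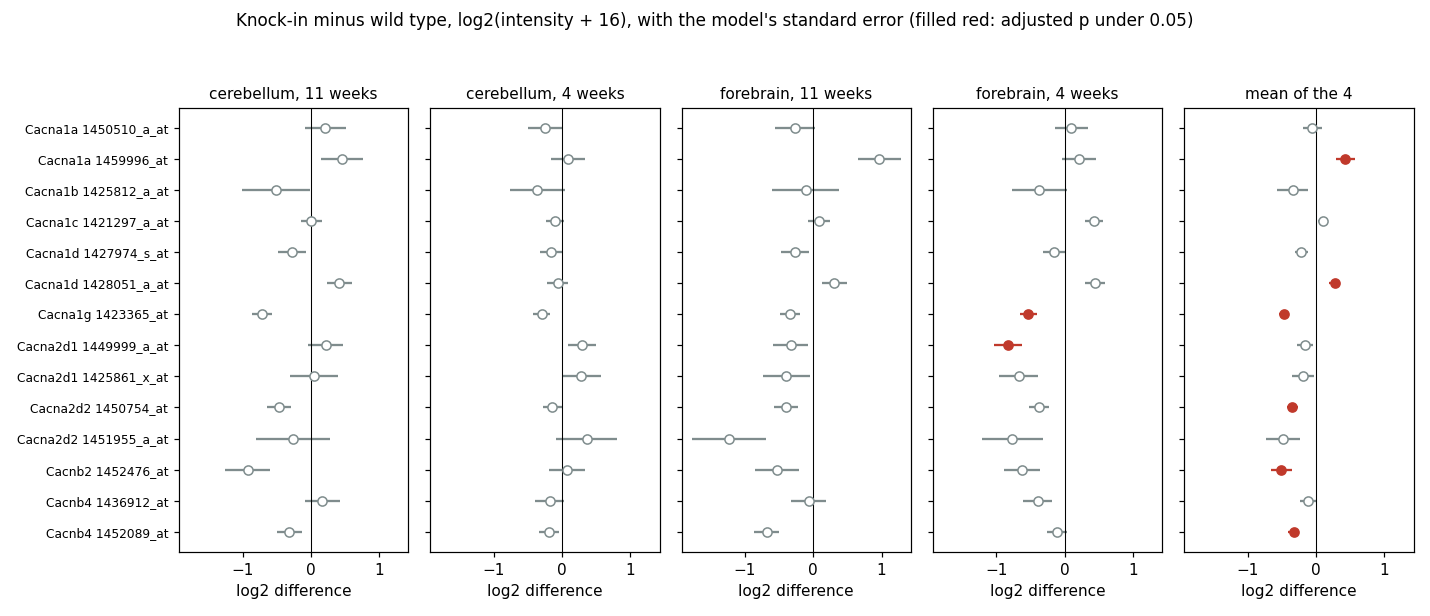
Log2 difference of knock-in minus wild type (x axis) with the model's standard error for the 14 tested probe sets, one panel for each region and age and one for their mean, with filled red points for adjusted p under 0.05. Cacna1g lies left of 0 in every panel, and 6 probe sets are filled in the panel of the mean.

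Neither age nor its interplay with genotype gave a called member. In wild-type mice 0 of 14 member probe sets differed between 11 and 4 weeks in cerebellum by limma (2 at an unadjusted p under 0.05, 0.198% of all probe sets called), and 0 in forebrain (1 at an unadjusted p under 0.05, 0.0064% called). Both of the members with an unadjusted p under 0.05 in cerebellum were Cacna1d probe sets. Probe set 1428051_a_at read 1386 and 1361 at 11 weeks and 2274, 1978 and 2499 at 4 weeks (-0.70 ± 0.17, adjusted p = 0.131), and 1427974_s_at read 2604 and 2765 at 11 weeks and 3997, 3633 and 4480 at 4 weeks (-0.58 ± 0.19, adjusted p = 0.283). Neither overlapped between the ages. The change of the genotype difference with age was called for 0 of 14 members in cerebellum (2 at an unadjusted p under 0.05, 0.0256% of all called) and 0 in forebrain (1 at an unadjusted p under 0.05, 0% of all called). In cerebellum at 4 weeks 0 members were called between genotypes by limma, with 1 at an unadjusted p under 0.05 and 0.0512% of all probe sets called.

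Other channel subunits on the array moved in both directions between genotypes. Of 16 other subunit genes 11 were tested, each by its brightest probe set, and over the 4 pairs 3 rose, 2 fell and 6 were not called, so 5 of 11 were called, beside 23.7% of all probe sets (15% higher and 8.65% lower). Cacng4, which also serves as an auxiliary subunit of AMPA receptors, fell by 0.83 (adjusted p = 0.0140), and this held without each array in turn. Cacna1f, the retinal L-type pore, rose by 0.39 (adjusted p = 0.0179), lost with quantile or cyclic loess normalization and without 3 of the 20 arrays. It was above the limit on both knock-in cerebellum arrays at 11 weeks and on 1 array in each knock-in forebrain group. Among wild-type arrays only 1 was above it, in forebrain at 11 weeks. Cacna1f thus passed the filter mainly through the genotype in which it is called higher. Cacna2d3 fell by 0.23 (adjusted p = 0.0370, lost without 12 arrays), and Cacnb1 1425777_at rose by 0.28 (adjusted p = 0.0394, lost without 11 arrays), while its other probe sets were not called. The third riser, Cacng7 (0.40, adjusted p = 0.0465), is named after its value was seen, and leaving out any of 17 of the 20 arrays ended its call (adjusted p up to 0.127), as did no filter and quantile or cyclic loess normalization.

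Of 25 genes for proteins that bind or regulate the channels, 12 were tested, and 2 rose, 0 fell and 10 were not called over the 4 pairs, a share of risers near the 15% of all probe sets that rose. Rem2, a small GTPase that inhibits high-voltage-activated channels, read 785 and 986 in knock-in forebrain at 11 weeks, against 289 and 57.6 in wild-type forebrain, both below the limit. Its difference there was 2.58 ± 0.43 (adjusted p = 0.0117), a size that depends on the offset, and the call was lost without either knock-in array (adjusted p up to 0.13). Over the 4 pairs Rem2 rose by 0.77 (adjusted p = 0.0119, but 0.0632 with cyclic loess normalization). Rims2, an active-zone protein that tethers presynaptic channels, rose by 0.28 for 1450761_s_at (adjusted p = 0.0290, lost without 4 arrays).

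In the forebrain mean, Rem2 rose (1.48 ± 0.28, adjusted p = 0.00496, a size that depends on the offset because 8 of the 10 forebrain arrays were below the limit), Cacng4 fell by 1.03 (adjusted p = 0.0371, lost without 6 of the 10 arrays, with no filter and with only the forebrain arrays fitted) and Cacng3 fell by 0.37 (adjusted p = 0.0451, lost without 9 of the 10 arrays). At 4 weeks in forebrain Cacng7 rose by 0.86 (adjusted p = 0.0486, lost without 5 of the 6 arrays).

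The 5 genes whose intensities followed Cacna1g most closely over the 20 arrays, after each region's mean was subtracted, were Zdhhc14 (r = 0.895), Dag1 (0.887), Ppargc1a (0.882), Wdr12 (0.873) and Adgrl1 (0.872). Their knock-in differences over the 4 pairs were -0.36, -0.45, -0.64, -0.42 and -0.33. The arrays share genotype and age differences, so these r values are a description without a test. Among the other members the highest likeness was 0.634 for Cacna1d 1427974_s_at, then 0.579 for Cacna2d2 1450754_at and 0.489 for Cacnb4 1452089_at, and the lowest was -0.305 for Cacna1c.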

How the data were processed

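Gene expression was measured on 20 arrays. The deposited table holds linear intensities for 22690 probe sets. After trimming 2% at each end, array means ran only between 2500.59 and 2500.75, so the authors' intensities carry a common scaling. The summarising software is not given in the sources used here, and the files name no genome build. Arrays have no read depth, and their number limits the precision.

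Among them, 64 array controls were left out. Keeping those above the 40th percentile of the array on 2 or more arrays left 15627. Genes were named from the platform annotation, with 20380 probe sets of a single symbol, of which 20351 were matched to RefSeq by Entrez number and 0 symbols were updated. Log2(intensity + 16) was fitted with 1 mean per group over all 20 arrays in limma 3.58.1 (R 4.3.3, with the package data.table, version 1.17.8), with 12 residual and 3.45 prior degrees of freedom. Tests are two-sided, adjusted by Benjamini-Hochberg over all kept probe sets. Means over ages or regions weight groups equally. The procedure was tested on simulated data. Same-numbered arrays of different groups showed only weak shared deviations, so numbers were not used as a block. The labels do not say whether cerebellum and forebrain arrays share animals, and the tests treat all 20 arrays as independent. Alternatives were the offset, filter, normalization, 1 probe set per gene, the variance prior, the arrays fitted, the replicate block and each array left out.

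All probe sets of the 10 genes are named. From each list of other pathway genes, called probe sets are named, up to 4 by p in a comparison of genotypes. The members, gene lists and tests were chosen with earlier results of these data known. A gene's brightest probe set is the kept one with the highest mean.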

Additional observations from a re-analysis of the deposited data

Results flagged for a closer look

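Cacna2d1 (1449999_a_at) drew attention at 11 weeks because the genotypes were apart in opposite directions in the regions. Knock-in cerebellum read 1836 and 1575, above the 1526 and 1398 of wild-type cerebellum, and knock-in forebrain read 3890 and 4687, below the 6036 and 4809 of wild-type forebrain. The genotype difference in cerebellum minus that in forebrain was 0.55 at this age, and that difference was not itself tested. The same kind of opposite separation was seen at 11 weeks for 682 of 15627 probe sets (4.36%).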

How the results depend on the processing

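Over 10 other settings and the planned omissions of single arrays, 0 of 36 member results reversed. These 36 were each called in at least 1 fit, so the counts of values do not cover every member result. Of 336 values under other settings 297 kept their side of the threshold, 15 lost it and 24 gained it, and of 412 values with an array left out 347 kept it, 58 lost it and 7 gained it. The count of called member probe sets in cerebellum at 11 weeks, 0 as reported, was 1 with an offset of 64, the 60th percentile filter, 1 probe set per gene or a trended robust prior. In forebrain at 11 weeks the trended prior gave 1 in place of 0. In forebrain at 4 weeks fitting only those arrays gave 0 in place of 2. The forebrain mean went to 1 without a filter and to 3 with 1 probe set per gene, in place of 5, and the mean over the 4 pairs to 3 with 1 probe set per gene, in place of 6. With 1 probe set per gene only 9 member probe sets were tested in place of 14, so called probe sets that were not their gene's brightest dropped out of the count.

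Leaving out 1 array gave 0 to 2 called members in forebrain at 4 weeks, 0 to 1 in the cerebellar mean, 0 to 5 in the forebrain mean, 4 to 7 over the 4 pairs and 9 to 12 between wild-type regions, and 0 in the other 8 comparisons. The count at 4 weeks in forebrain was 1 without knock-in replicate 1 or wild-type replicate 2 or 3 and 0 without knock-in replicate 2. The cerebellar mean had 0 without knock-in cerebellum 11 weeks replicate 2, and the forebrain mean 0 to 3 without any forebrain array but wild-type 4 weeks replicate 1. Over all probe sets the other settings gave 0 to 116 calls in cerebellum at 11 weeks (54 as reported), 0 to 196 in forebrain at 11 weeks (135), 223 to 1241 in forebrain at 4 weeks (1151), 307 to 693 in the cerebellar mean (524), 1301 to 2261 in the forebrain mean (2108) and 22 to 67 between regions (44), with the lowest where only the compared arrays were fitted or, for the cerebellar mean and the difference between regions, with no filter.

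Replicate numbers gave little sign that arrays were paired. Same-numbered arrays of the other genotype correlated at -0.0992 to 0.0520 in their deviations, and those of the other region at -0.0234 to 0.113. Of 12 arrays at 4 weeks, 6 correlated best with their own number. With 2 arrays per group at 11 weeks the deviations mirror each other, so that age adds little to this check, which cannot exclude shared animals. With a replicate block, fixed or random, cerebellum at 11 weeks had 1 called member in place of 0. The fixed block also brought calls of Cacna1d 1427974_s_at over the 4 pairs (0.0434) and between wild-type regions (0.0144), of Cacna1d 1428051_a_at in forebrain at 4 weeks (0.0396) and of Cacna2d1 1425861_x_at in the forebrain mean (0.0437), all adjusted p.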
